A study of Rattus norvegicus with 12 samples.

Results

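The transcripts described here are 5 genes of the endoplasmic reticulum (ER) stress and unfolded protein response, namely Hspa5, Calr, Xbp1, Atf4 and Ddit3, out of 32883 genes in the deposited count table. They were chosen by a list of Ensembl rat identifiers that gives their symbols: ENSRNOG00000018294 (Hspa5), ENSRNOG00000003029 (Calr), ENSRNOG00000010298 (Xbp1), ENSRNOG00000017801 (Atf4) and ENSRNOG00000006789 (Ddit3). All 5 passed the filter on low counts that left 10491 genes for testing. The material was heart muscle cells of the ventricle from newborn Wistar rats, labelled as 2 days old. RNA bound in lysates of these cells was precipitated with an antibody against the RNA-binding protein Cpeb4 (IP), and total RNA of the cells served as input. The 4 groups, with 3 libraries each, were IP of cells treated with phenylephrine (PE) for 24 h, input of PE-treated cells, IP of mock-treated cells and input of mock-treated cells. PE is an agonist of alpha-adrenergic receptors that makes cardiomyocytes grow in culture. The labels give no knockout or transgene, and a precipitate made without the Cpeb4 antibody was not analysed here, so recovery through Cpeb4 and recovery by the beads or antibody alone cannot be told apart.

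The unfolded protein response adjusts the folding capacity of the ER to its load. Hspa5 (also called BiP) is the Hsp70 chaperone of the ER lumen and holds the stress sensors inactive, and Calr (calreticulin) is a lectin chaperone that also binds calcium. Xbp1 encodes the transcription factor made when the sensor Ire1 removes an intron from its mRNA, and Atf4 encodes the transcription factor whose translation is favoured when the kinase Perk phosphorylates eIF2 alpha. Ddit3 (CHOP), a target of Atf4, is a transcription factor linked to cell death under prolonged stress. Cpeb4 binds cytoplasmic polyadenylation elements near the 3′ ends of mRNAs and is known in mouse liver to act in the translation of ER stress mRNAs. Counts of 3′ ends, as used here, do not tell spliced from unspliced Xbp1 mRNA.

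Exact matches to a promoter element were found in some of the members. The ER stress response element (ERSE), known as a binding site of Atf6 and Xbp1 together with NF-Y, was searched on both strands as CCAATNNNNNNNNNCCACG in windows from 250 bases before to 50 bases after the annotated start of each gene (RefSeq, GRCr8). It occurred in 3 of the 5 members and in 22 of 33469 windows of all genes (0.0657%). The matches are shown because Hspa5, Calr and Xbp1 have them in common. The element is named for the ER stress response, by which the members were also chosen. Its frequency among them is therefore not an independent result. Capitals mark the 19 bases of the element, which in Calr runs on the opposite strand, and all 3 stretches lie on the plus strand at chr3:38452953-38453011 for Hspa5, chr19:40213117-40213173 for Calr and chr14:84604538-84604596 for Xbp1.
Hspa5: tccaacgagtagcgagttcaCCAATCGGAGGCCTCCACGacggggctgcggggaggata
Calr: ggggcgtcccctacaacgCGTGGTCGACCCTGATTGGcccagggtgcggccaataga
Xbp1: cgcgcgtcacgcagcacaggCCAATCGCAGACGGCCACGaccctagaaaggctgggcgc

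The element spans bases -43 to -25 in Hspa5, -232 to -214 in Calr and -65 to -47 in Xbp1, counted from the annotated start. The windows of Atf4 and Ddit3 held none, and no member held the motifs ATTGGNCCACG (ERSE-II, in 0.0508% of windows), TGACGTGG (a core bound by Xbp1 and Atf6, 0.595%) or TGATGCAA (a core bound by Atf4 with C/EBP factors, 0.795%). The short CCAAT box, which forms part of the element, occurred in 4 members and in 37.5% of all windows. These are matches of letters in short windows and say nothing of binding in these cells.

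**Figure D1:**
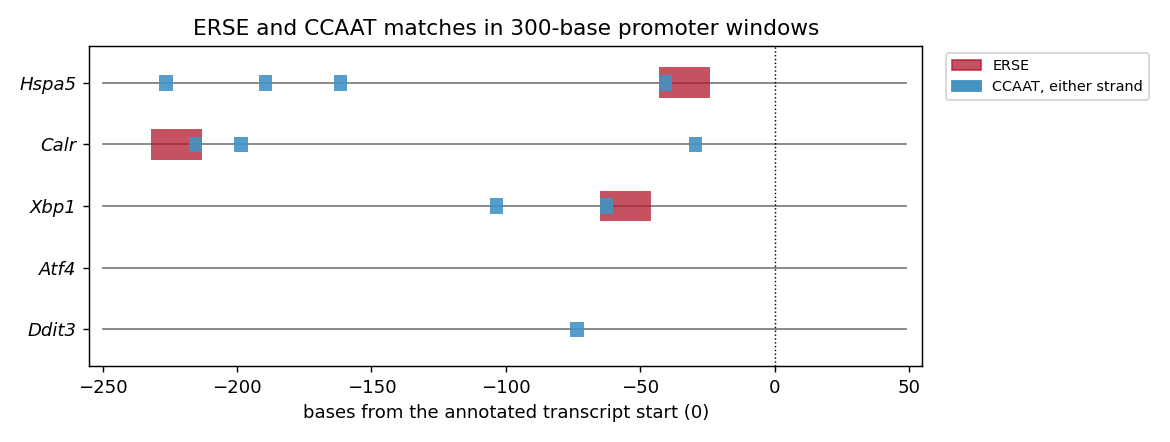
Positions of ERSE (red) and CCAAT (blue, either strand) matches in the promoter windows of the 5 members, with the x axis in bases from the annotated transcript start. Hspa5, Calr and Xbp1 each hold an exact ERSE match, at bases -43 to -25, -232 to -214 and -65 to -47. Atf4 and Ddit3 hold no exact match, and near matches are not drawn.

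Library totals ranged from 1423334 to 30216559 counts. Levels are given in CPM, that is, counts brought to an equal library size, after TMM scaling, which sets most genes to equal levels across libraries. Mock replicate 2 and PE replicate 1 stood apart in part: of the genes tested, 27.2% had 0 counts in mock IP replicate 2, 22.2% in PE input replicate 1 and 21.3% in mock input replicate 2, whereas PE IP replicate 1 had 8.03% and the other libraries 2.72% to 15.1%. In each of the 4 groups, the library of mock replicate 2 or PE replicate 1 had the highest Calr and the lowest Hspa5 level of the group. Both RNA types of these 2 replicate numbers are called the 4 libraries set apart below. They were set apart for genes at 0 counts in earlier results and not for the levels of the members, with PE IP replicate 1 included for its number, and a result is also given without them where its call changes. Leaving them out removes the lowest Hspa5 and the highest Calr library of each group, and so narrows the spread of these genes by construction. The labelled cell type was not checked against marker genes, because the identifiers of such genes are not paired with symbols in the tables used here.

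**Figure D2:**
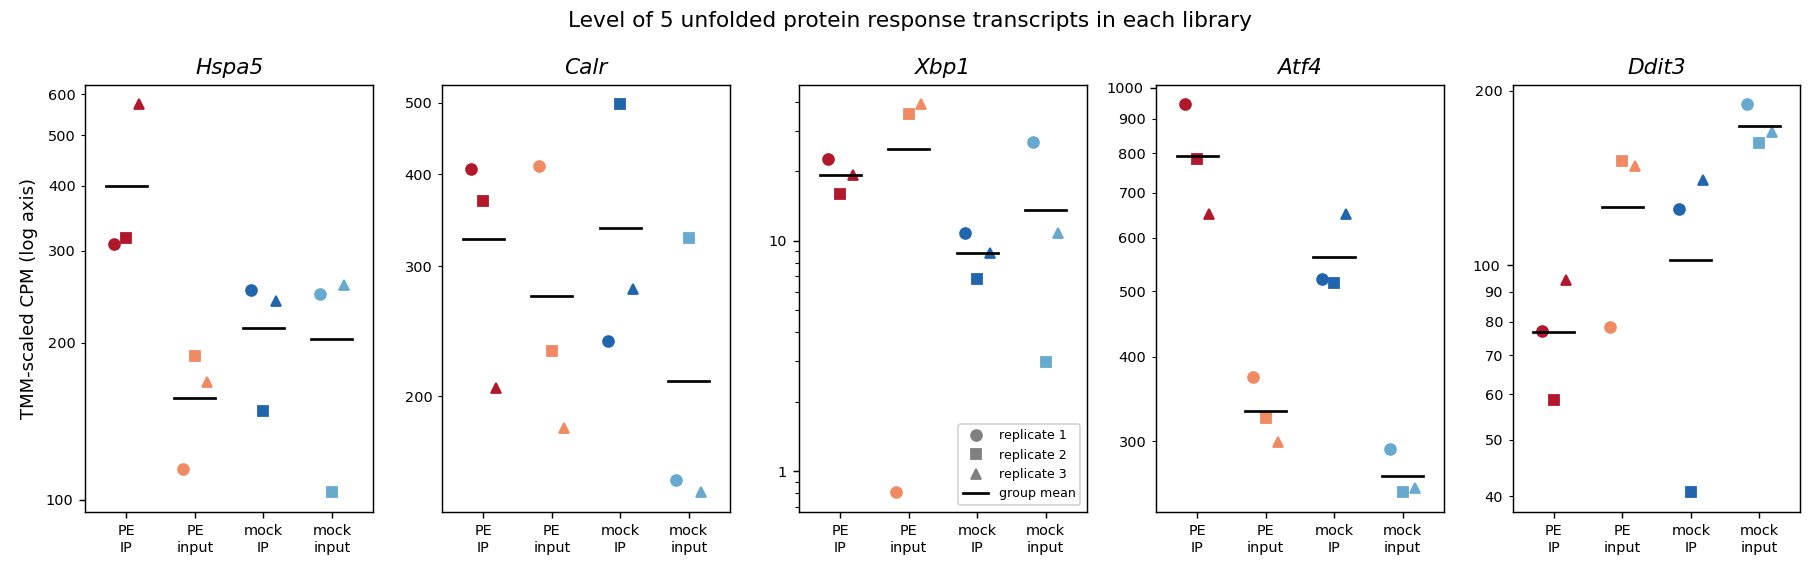
TMM-scaled CPM (log y axes that differ between panels) of the 5 members in each of the 12 libraries, by group, with replicate numbers as symbols and group means as bars. Atf4 lies at 515 to 945 CPM in the 6 IP libraries and at 252 to 374 CPM in the 6 inputs, and the other members overlap between IP and input in at least 1 treatment.

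Atf4 was the member called higher in the Cpeb4 precipitates. Averaged over both treatments it was 2.24-fold higher in IP than in input (95% interval 1.69 to 2.97), above 81.4% of all genes tested. No other member passed an adjusted p of 0.05 in any comparison by the edgeR test as designed. In PE cells alone the fold was 2.38 for Atf4 and 2.55 for Hspa5, which did not pass. Per Atf4 count, the number of Ddit3 counts was lower in every IP library than in every input of the same treatment. Groups separated likewise, in either direction, for 9.66% of all ratios between tested genes with a count in every library. The Ddit3 difference is given below without a test. Hspa5 was higher in all 3 precipitates of PE cells than in all 3 inputs, as for 12.9% of all genes, without passing the test. PE changed none of the 5 transcripts past the threshold in either RNA pool.

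Atf4 had 945, 786 and 650.2 CPM in PE IP replicates 1, 2 and 3, against 374, 325 and 299.7 CPM in PE input. It had 521, 515 and 650.5 CPM in mock IP, against 293, 252 and 256 CPM in mock input. All 6 precipitates lay above all 6 inputs, and the lowest precipitate and the highest input were mock IP replicate 2 and PE input replicate 1. Group means were 794 ± 148 CPM in PE IP and 333 ± 37.7 CPM in PE input (SD, n = 3 each), and 562 ± 76.5 CPM in mock IP and 267 ± 22.5 CPM in mock input (SD, n = 3 each).

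The log2 fold change of Atf4 in IP against input, averaged over both treatments, was 1.16 (SE 0.19, edgeR quasi-likelihood test, adjusted p = 0.00151 over 10491 genes). It passed whichever of the 12 libraries was left out (largest edgeR adjusted p 0.00736), and also without the 4 libraries set apart (edgeR adjusted p = 0.000173). In PE cells alone the log2 fold change was 1.25 (SE 0.27, edgeR adjusted p = 0.0229). That call was lost without PE input replicate 2 or 3 (edgeR adjusted p = 0.113 and 0.148), without PE IP replicate 1 or 2 (0.100 and 0.0818) and with the 6 PE libraries fitted alone (0.0726), although the log2 fold change stayed between 1.11 and 1.38. In mock cells it was 1.07 (SE 0.27), which did not pass (edgeR adjusted p = 0.0844).

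In mock cells, deviations from the group mean correlated weakly between input and IP of the same replicate number (0.154, 0.242 and 0.105). With a replicate block, which the fit applied to the libraries of both treatments, Atf4 passed in mock cells as well (log2 fold change 1.07, edgeR adjusted p = 0.0307). It also passed in mock cells with the Wald test of DESeq2 (adjusted p = 0.00147), without the 4 libraries set apart (edgeR adjusted p = 0.0156) and with library totals in place of TMM factors (edgeR adjusted p = 0.00898). It did not pass there with DESeq2 size factors (edgeR adjusted p = 0.0977), without a filter (0.147), with the 6 mock libraries alone (0.190) or in any of the 12 fits that left out a single library (0.0782 to 0.314).

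Of all genes tested, 2.26% were called higher and 3.62% lower in IP than in input over both treatments, against 1 and 0 of the 5 members. With library totals in place of TMM factors these shares were 26.9% and 0.620%. In PE cells 0.458% were called higher and 1.65% lower, against 1 and 0 members, and in mock cells 0.162% and 0.581%, against 0 members in either direction by edgeR. In mock cells 1 member and 10.8% of all genes had an unadjusted p under 0.05 by edgeR, and 1 member and 0.938% of all genes passed as higher by DESeq2. The median log2 fold change over both treatments was 0.47 for the 5 members and 0.16 for all genes, and 3 of the 5 members and 56.9% of all genes lay above 0. The groups of Atf4 did not overlap in either treatment, as for 2.95% of all genes in this direction, and no member lay lower without overlap in both, as 3.7% of genes did. Atf4 in mock cells was 1 member without overlap where 9.96% of all genes were, and in PE cells no member lay lower without overlap where 9.21% of genes did.

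The scaling set how far the other members stood from 0. With library totals and no composition factor, all genes tested had a median log2 fold change of 1.31 over both treatments, so that every member shifted up. Atf4 then stood at 2.28, above that median, Hspa5 at 1.93 and Calr at 1.47, and these 3 passed. Ddit3 at 0.43 and Xbp1 at 0.86 turned positive but lay below the median of all genes.

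Ddit3 had 77.2, 58.5 and 94.4 CPM in PE IP, against 78.4, 151 and 148 CPM in PE input. It had 125, 40.6 and 140.5 CPM in mock IP, against 189, 162 and 169.5 CPM in mock input. In mock cells all 3 precipitates lay below all 3 inputs, which held for 7.9% of all genes, and in PE cells the low value of PE input replicate 1 made the groups overlap. The log2 fold change over both treatments was -0.74 (SE 0.30, 95% interval -1.38 to -0.10), which did not pass (edgeR adjusted p = 0.186). Its sign turned with library totals, and without the 4 libraries set apart the value of -0.74 passed (edgeR adjusted p = 0.0208). In PE cells alone it was -0.71 (SE 0.43, edgeR adjusted p = 0.606), and -1.01 without the 4 libraries (edgeR adjusted p = 0.0371).

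The ratio of 2 members within a library needs no scaling between libraries. Ddit3 had 8.16, 7.44 and 14.5 counts per 100 Atf4 counts in PE IP, against 21.0, 46.6 and 49.4 in PE input. It had 24.0, 7.88 and 21.6 per 100 Atf4 counts in mock IP, against 64.7, 64.3 and 66.3 in mock input. In each treatment all 3 precipitates lay below all 3 inputs, and the mock inputs differed among themselves by little. Means were 10.04 ± 3.89 in PE IP and 39.0 ± 15.7 in PE input, and 17.8 ± 8.69 in mock IP and 65.1 ± 1.07 in mock input (SD, n = 3 each). The difference of the mean log2 ratio, averaged over both treatments, was -1.98.

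The number of Ddit3 counts per Hspa5 count was likewise lower in each precipitate than in each input of its treatment. It had 24.99, 18.4 and 16.5 counts per 100 Hspa5 counts in PE IP, against 68.6, 80.4 and 88.2 in PE input. It had 49.5, 27.4 and 58.3 per 100 Hspa5 counts in mock IP, against 76.4, 157 and 65.6 in mock input. Here too the groups did not overlap in either treatment, with a difference of the mean log2 ratio of -1.55. Of the 10 ratios between members, these 2 had groups without overlap in 1 direction in both treatments, compared with 9.66% of all ratios between the 5618 tested genes that had a count in every library. No test was made of the ratios, since 10 were looked at and the members share their libraries.

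**Figure D3:**
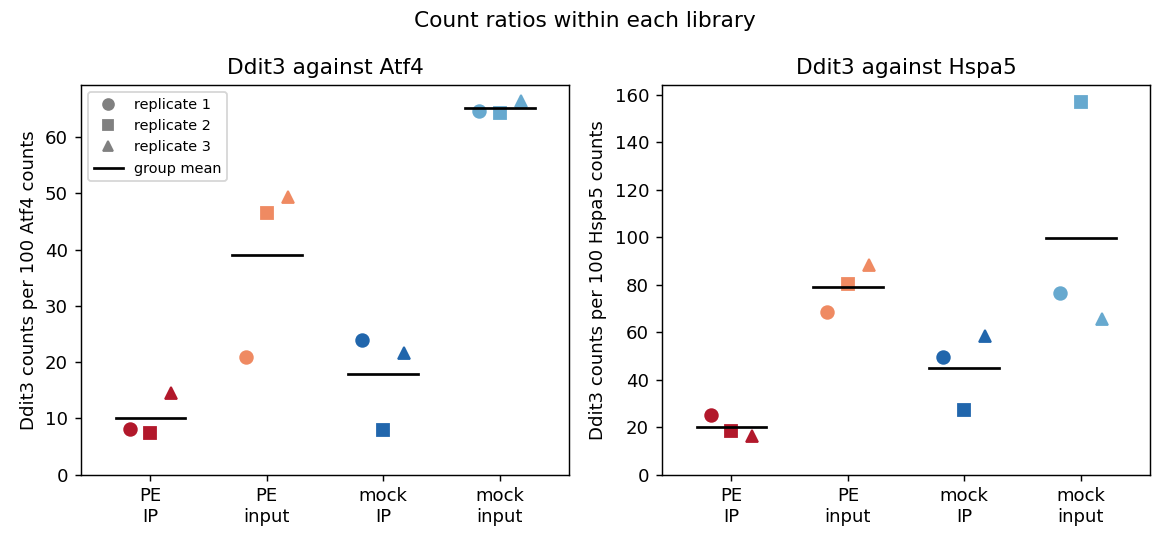
Ddit3 counts per 100 Atf4 counts (left) and per 100 Hspa5 counts (right) in each library, by group, with replicate numbers as symbols and group means as bars, on y axes from 0. The PE IP and mock IP libraries hold 7.44 to 24.0 Ddit3 counts per 100 Atf4 counts and the inputs 21.0 to 66.3, and within each treatment IP lies below input in both panels.

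Xbp1 varied most across the 12 libraries, with an SD of log2 CPM of 1.47, against 0.56 to 0.66 for the other members. It had 22.6, 15.95 and 19.3 CPM in PE IP, against 0.808, 35.3 and 39.0 CPM in PE input. It had 10.8, 6.81 and 8.82 CPM in mock IP, against 26.8, 2.97 and 10.8 CPM in mock input. The precipitates of a group lay close together and the inputs did not, with a spread of 48.2-fold in PE input. The low PE input value, of replicate 1, rested on 4 counts, with an exact Poisson interval of 0.220 to 2.07 CPM that covers counting error only, and so lay below the other PE inputs by more than counting error. The log2 fold change in IP against input over both treatments was -0.50 (SE 0.71, 95% interval -2.00 to 0.99, edgeR adjusted p = 0.823). Its sign turned without mock input replicate 1 (0.035) and with library totals, and without the 4 libraries set apart it was -1.08 (edgeR adjusted p = 0.0664), so no direction was shown for Xbp1.

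Hspa5 had 309, 317 and 574 CPM in PE IP, against 114, 188 and 168 CPM in PE input. It had 252, 148 and 241 CPM in mock IP, against 248, 103 and 258 CPM in mock input. In PE cells all precipitates lay above all inputs, as for 12.9% of all genes, whereas in mock cells the libraries of IP and input lay at similar levels. The log2 fold change was 1.35 in PE cells (SE 0.40, 95% interval 0.51 to 2.20), which did not pass (edgeR adjusted p = 0.105). It passed without the 4 libraries set apart (1.28, edgeR adjusted p = 0.00629), which hold the lowest Hspa5 value of each group. With the replicate block it passed too (1.32, edgeR adjusted p = 0.0228). It also passed without a filter on low counts (1.36, 0.0417) and with the DESeq2 Wald test (1.35, 0.0422). With library totals it passed as well (2.47, edgeR adjusted p = 0.00631), where the median of all genes was 1.27. It did not pass with DESeq2 size factors (edgeR adjusted p = 0.107) or with the 6 PE libraries alone (0.110). Nor did it pass in any of the 12 fits that left out a single library (edgeR adjusted p 0.0582 to 0.387). In mock cells it was 0.08 (SE 0.39, 95% interval -0.76 to 0.91, edgeR adjusted p = 0.998) and turned to -0.01 with DESeq2 size factors. With library totals the mock value was 1.3995 and passed (edgeR adjusted p = 0.0396), where the median of all genes was 1.32.

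Over both treatments the log2 value of Hspa5 was 0.71 (SE 0.28, edgeR adjusted p = 0.166), and did not pass. Without the 4 libraries set apart, and thus without the lowest Hspa5 library of each group, the value was smaller at 0.60 with an edgeR adjusted p of 0.0486. With the replicate block the value was 0.74 (edgeR adjusted p = 0.0375). The change of its IP enrichment with PE, tested as the difference between both treatments, was 1.27 on the log2 scale (SE 0.56, 95% interval 0.09 to 2.45). This did not pass (edgeR adjusted p = 1.00, unadjusted p = 0.0363), so the larger enrichment in PE cells was not shown to differ from that in mock cells. For Atf4 the same difference was 0.18 (95% interval -0.62 to 0.98), for Ddit3 0.05 (-1.22 to 1.32), for Calr -0.43 (-1.70 to 0.84) and for Xbp1 0.25 (-2.73 to 3.24). None of all genes passed this test by edgeR (0%, with 2.58% at an unadjusted p under 0.05), and DESeq2 passed 0 of the 5 members.

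Calr had 407, 368 and 205.0 CPM in PE IP, against 410.4, 230.2 and 181 CPM in PE input. It had 238, 498 and 279.8 CPM in mock IP, against 154, 327 and 148 CPM in mock input. IP and input overlapped in both treatments, and the highest library of each group was mock replicate 2 or PE replicate 1. Within each of the 3 mock pairs of input and IP, Calr was higher in IP, and with the replicate block the mock log2 fold change was 0.71 (SE 0.25), which did not pass (edgeR adjusted p = 0.201). The log2 fold change was 0.26 in PE cells (SE 0.43) and 0.69 in mock cells (SE 0.43, edgeR adjusted p = 0.954 and 0.627), and 0.47 over both (SE 0.30, 95% interval -0.17 to 1.11, edgeR adjusted p = 0.470).

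**Figure D4:**
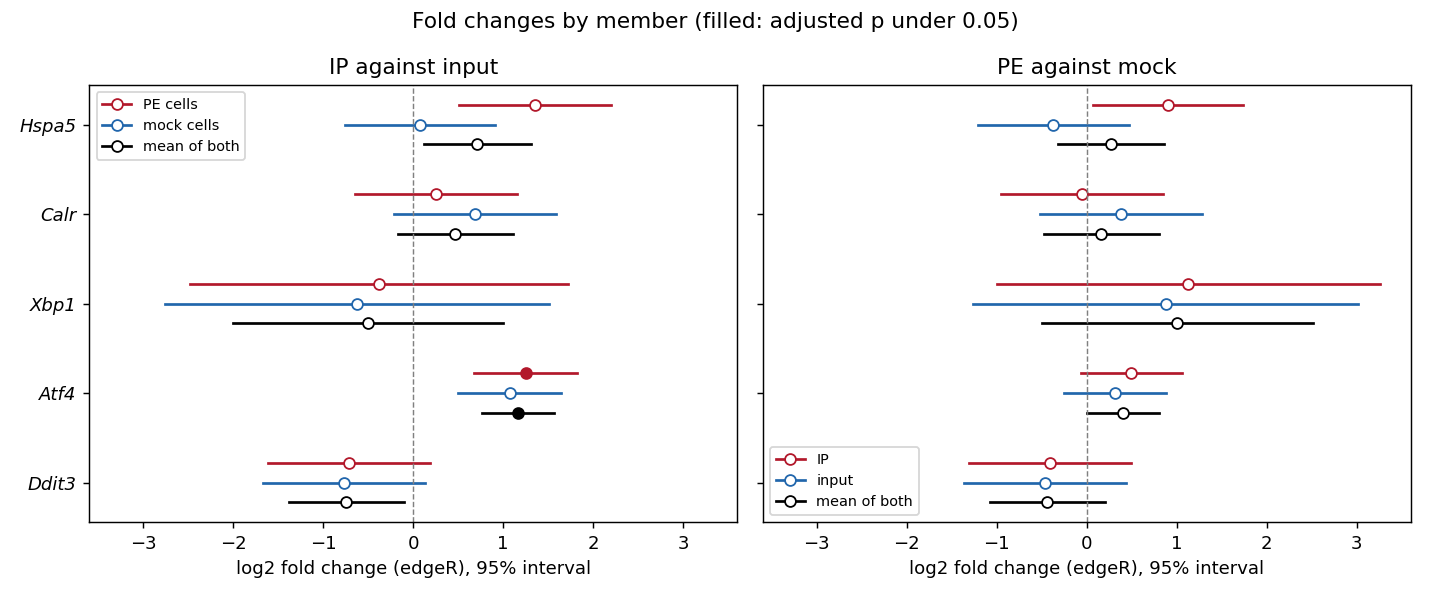
Log2 fold changes from edgeR with 95% intervals for IP against input (left; PE cells, mock cells and their mean) and PE against mock (right; IP, input and their mean), with filled points where the adjusted p was under 0.05. The filled points are those of Atf4 in IP against input, at 1.25 in PE cells and 1.16 over both treatments.

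PE against mock was compared within each RNA pool, a question of what 24 h of PE does to the transcripts in the cells and in the precipitates. None of the 5 members passed in input, in IP or over both (edgeR), where 0.00953%, 0.00953% and 0.0953% of all genes were called higher and 0%, 0% and 0.0286% lower. An unadjusted p under 0.05 was reached by 0, 1 and 1 members, and by 3.57%, 5.54% and 6.51% of all genes, and DESeq2 also passed 0 members. In these bulk samples fewer cells of a type and less RNA per cell cannot be told apart.

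Hspa5 had the smallest unadjusted p among the members in the precipitates of PE against mock cells. All 3 PE precipitates lay above all 3 mock precipitates, as for 8.61% of all genes, with a log2 fold change of 0.90 (SE 0.40, 95% interval 0.07 to 1.74, edgeR adjusted p = 0.820). In input the value was -0.37 (SE 0.40, 95% interval -1.20 to 0.47). Xbp1 likewise had PE precipitates above mock precipitates without overlap, at 19.3 ± 3.31 CPM in PE IP and 8.82 ± 2.01 CPM in mock IP (SD, n = 3 each), and the log2 fold change there, 1.13 with an SE of 1.00, did not pass (edgeR adjusted p = 1.00). The spread of Xbp1 was estimated over all 12 libraries, including its scattered inputs, and on the 6 IP libraries alone the value was 1.09 (SE 0.68, edgeR adjusted p = 1.00).

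In input, Atf4 was higher in all 3 PE libraries than in all 3 mock libraries, as for 5.67% of all genes, with a log2 fold change of 0.32 (SE 0.27, 95% interval -0.25 to 0.89). Ddit3 was lower in PE input than in mock input without overlap, as for 4.18% of all genes, with a log2 fold change of -0.46 (SE 0.43, 95% interval -1.37 to 0.44). Neither passed (edgeR adjusted p = 1.00 for both). No member lay lower without overlap in PE IP than in mock IP, as 6.29% of all genes did. Over both RNA pools Atf4 stood at 0.41 (SE 0.19, 95% interval 0.01 to 0.81, edgeR adjusted p = 0.756), Xbp1 at 1.01 (SE 0.71), Hspa5 at 0.27 (SE 0.28), Calr at 0.16 (SE 0.30) and Ddit3 at -0.44 (SE 0.30).

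The profiles of the 5 members across the 12 libraries were compared in pairs. With each profile centred on its own mean of log2 CPM, the root-mean-square difference was smallest between Calr and Atf4 and between Hspa5 and Atf4, at 0.59 each, and largest between Calr and Xbp1, at 1.83. Hspa5, Calr and Xbp1, the members with an exact ERSE match, differed from each other by 1.00 to 1.83. The median difference from all genes tested was 1.54 for Hspa5, 1.68 for Calr, 1.84 for Xbp1, 1.58 for Atf4 and 1.59 for Ddit3. Every pair of members except Calr and Xbp1 lay below the medians of both genes. This difference depends on the spread of both genes, and the SD of log2 CPM was 0.56 to 0.66 for all members but Xbp1 (1.47). Lying below the medians therefore does not show that members vary together. The nearest genes outside the list came closer: ENSRNOG00000008016 differed from Calr by 0.18 and ENSRNOG00000010386 from Atf4 by 0.20 over the 12 libraries. A minimum over many more genes than the members was bound to be smaller, so no conclusion is drawn from it. For Ddit3, Hspa5 and Xbp1 the nearest gene lay at 0.23, 0.28 and 0.52.

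**Figure D5:**
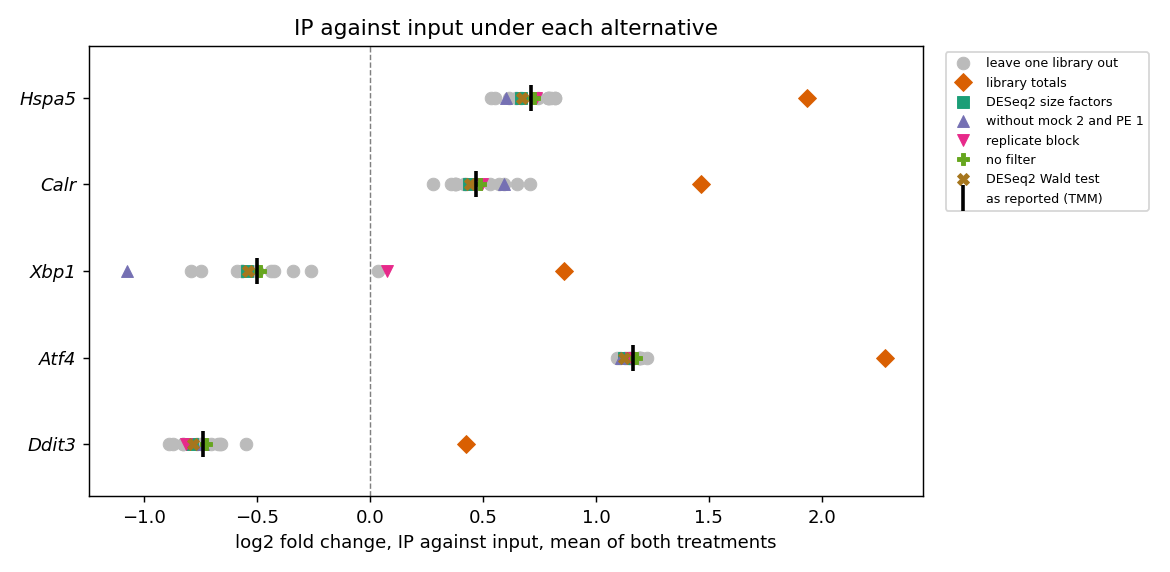
Log2 fold change of each member in IP against input, averaged over both treatments (x axis), as reported and under each alternative fit, with the 12 fits that leave out 1 library in grey. Atf4 stays between 1.09 and 1.23 except with library totals, at 2.28, which move every member up and turn the sign of Ddit3 and Xbp1.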

How the data were processed

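Per the labels' protocols, Cpeb4 was precipitated overnight from myocyte lysates, and libraries were made with a 3′ end kit from RNA eluted from the beads or from total RNA. The authors deposited raw counts per gene with Ensembl rat identifiers. Per the submitters' processing notes the build was Rnor_6.0 and the tools included STAR 2.7 and featureCounts 1.6.4, after cutadapt 2.5, with DESeq2 also named. Options and strand settings are not given in the sources used. Columns were matched to samples by RNA type, treatment and replicate number, and 32883 blank lines were skipped. The symbols of the 5 members come from the list that defines them. The RefSeq gene table (GRCr8, 47357 genes) holds 0 Ensembl identifiers, so lists of further unfolded protein response genes and of cell type markers were not analysed here, and the promoters of the 5 members were matched by symbol.

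Counts were tested with edgeR 4.0.16 in R 4.3.3 (TMM factors, filterByExpr, robust quasi-likelihood F-test, 4 group means of 12 libraries), with Benjamini-Hochberg adjustment over 10491 genes and a threshold of 0.05. Standard errors (SE) are the fold change divided by the square root of F. The alternatives were DESeq2 1.42.0 and its size factors, library totals, no filter, 6 libraries, replicate blocks, and leaving out libraries. The steps were tested on simulated counts. The members, lists and alternatives were chosen with earlier results of these data known, and the named genes are the 5 members and, for likeness (prior count of 2), the nearest gene of a member, limited to 2 identifiers.

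Libraries of a group differed beyond sampling noise (chi-square per degree of freedom of at least 7.79), so each counted as 1 replicate. The labels do not say whether replicates are separate cultures or animals, and a p-value here reflects only the spread among these libraries, which may be technical. Library totals spanned 21.2-fold. As a check of the replicate numbers, deviations from the group mean were correlated between input and IP of the same number. The correlations were 0.154, 0.242 and 0.105 in mock cells and 0.196, 0.0171 and 0.201 in PE cells. By them the mock libraries were taken as paired and the PE libraries were not. These values overlap between treatments, and the column names give input and IP of a number a shared letter in both. The correlations therefore do not show that PE input and IP are unpaired. The reported test used no pairing, and the fit with the replicate block blocked the libraries of both treatments.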

Additional observations from a re-analysis of the deposited data

How the results depend on the processing

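Counts are of the 5 members called. For IP against input, members called higher were 1 over both treatments, 0 in mock and 1 in PE cells as reported. These became 3, 2 and 2 with library totals, 2, 1 and 2 with the replicate block, and 2, 1 and 2 without the 4 libraries set apart (both RNA types of mock replicate 2 and of PE replicate 1). The shares of all genes called higher were 2.26%, 0.162% and 0.458% as reported, and rose as well, to 26.9%, 8.03% and 6.11%, to 3.31%, 0.906% and 1.22%, and to 6.27%, 1.56% and 3.28% under these settings in the same order. The last setting also called 1 member lower over both treatments and 1 in PE cells, against 0 as reported. The DESeq2 Wald test called 1 higher in mock and 2 in PE cells (0.938% and 1.45% of all genes), no filter 2 in PE cells (1.00%), and the 6 PE libraries alone 0 (0.193%). Leaving out 1 library gave 0 to 1 higher in PE cells. Apart from library totals, by construction without correction for composition, the cause was not tested.

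Of the log2 fold changes, none that passed as reported changed sign under any alternative. Those that did not pass turned as follows. Library totals gave Ddit3 0.43 over both treatments, 0.42 in mock and 0.43 in PE cells, Xbp1 0.86, 0.81 and 0.91 there, and Calr 0.072 for PE against mock in IP. DESeq2 size factors and the DESeq2 Wald test gave Hspa5 -0.013 and -0.0097 in mock cells. Without the 4 libraries, Hspa5 was -0.072 for IP against input in mock cells, Calr 0.14 for PE against mock in IP, and the change of enrichment with PE -0.54 for Ddit3 and -0.072 for Xbp1, whose IP against input was -1.08 over both treatments and -1.11 in PE cells. Over the fits without 1 library, IP against input ranged from -0.24 to 0.29 for Hspa5 in mock cells, and for Xbp1 from -1.12 to 0.45 in mock cells, -0.96 to 0.10 in PE cells and -0.80 to 0.035 over both. The change of enrichment ranged from -0.33 to 0.35 for Ddit3 and -0.83 to 0.74 for Xbp1. PE against mock for Calr ranged from -0.039 to 0.86 in input, -0.25 to 0.34 in IP and -0.043 to 0.40 over both.

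With the replicate block, Hspa5 passed in PE cells (1.32, edgeR adjusted p = 0.0228) and over both treatments (0.74, 0.0375), and Xbp1 turned to 0.31 in PE cells and 0.077 over both. In the column names, input and IP of the same number share a letter in both treatments, whereas PE and mock share only a number. In mock cells 5 of 6 and in PE cells 4 of 6 libraries correlated best with their own number. Between PE and mock 1 of 6 inputs and 2 of 6 precipitates did. Besides these, the block changed the call of Atf4 in mock cells (1.07, edgeR adjusted p = 0.0307).

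Counts of all genes moved with the settings as well. IP against input over both treatments called 237 higher and 380 lower as reported, 578 and 666 with the DESeq2 Wald test, and 2823 and 65 with library totals. Xbp1 rested on 4 to 13 counts in 3 of the inputs.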
